A study of Rattus norvegicus with 12 samples.

Results

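The let-7 family was described here through 8 mature microRNAs (miRNAs), the 5p arms of let-7a, let-7b, let-7c, let-7d, let-7e, let-7f, let-7i and miR-98, which were taken by name from the deposited lists. They were 8 of 753 mature miRNAs listed per library, and all 8 were among the 420 that passed the filter on low counts (miRNAs that stayed under 10 reads in at least 10 libraries were dropped). Small RNA was sequenced from the hippocampus of male Sprague Dawley rats in early adulthood, between postnatal days 70 and 80. The ethanol group was injected with 4 g/kg ethanol and the control group with vehicle, and tissue was collected 3 h later. The labels name the right hippocampus and the methods of the study the dorsal hippocampus. The labels describe 8 rats per group, of which 4 vehicle and 8 ethanol rats (1 library each) were analysed here, and the remaining vehicle rats were not analysed here.

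MiRNAs are short RNAs that pair with messenger RNAs, mainly through the seed near their 5′ end, and lower the protein made from them. The let-7 miRNAs, first found through the timing of worm development, are abundant in differentiated tissue, including adult neurons, and known targets of the family include the messages of Lin28, Hmga2 and Ras genes. The LIN28 proteins in turn bind let-7 precursors and block their maturation, so that let-7 is low in stem cells and rises as neurons differentiate. Mature miRNAs are cut from hairpins, of which one arm (5p for most let-7 genes) usually persists and the other (3p) is usually degraded.

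The mature sequences are shown because they set both what the family shares and how well its members could be told apart by sequencing. They were read from RefSeq (GRCr8), where names matched 688 of the 753 listed miRNAs, and the capitals mark the seed, bases 2 to 8 counted from 1 at the 5′ end.
rno-let-7a-5p: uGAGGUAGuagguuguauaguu
rno-let-7b-5p: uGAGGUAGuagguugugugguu
rno-let-7c-5p: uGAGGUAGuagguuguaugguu
rno-let-7d-5p: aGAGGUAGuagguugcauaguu
rno-let-7e-5p: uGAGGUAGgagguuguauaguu
rno-let-7f-5p: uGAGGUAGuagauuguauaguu
rno-let-7i-5p: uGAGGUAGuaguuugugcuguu
rno-miR-98-5p: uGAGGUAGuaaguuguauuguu
rno-let-7g-5p: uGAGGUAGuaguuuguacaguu
All 9 sequences were 22 bases long and had the seed GAGGUAG. The last, let-7g-5p, is not one of the 8 members but was the only other listed miRNA with that seed among those matched, and its values are given beside theirs.

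Outside the seed the members were close to identical. With the let-7a base written first, let-7c differed from let-7a by A19G alone, let-7e by U9G alone and let-7f by G12A alone. Let-7b carried A17G, A19G, let-7d carried U1A, U16C, and miR-98 carried G11A, A19U. Let-7i was the farthest from let-7a with G12U, A17G, U18C, A19U, and let-7g carried G12U, U18C. Over the 28 pairs of members the number of differing bases ranged from 1 to 6, and 4 pairs (let-7a with let-7c, let-7e or let-7f, and let-7b with let-7c) differed by a single base.

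The same mature RNA could come from more than 1 gene for let-7a, let-7c and let-7f, each with 2 positions in GRCr8. On chromosome 17, let-7a (chr17:16320145-16320166), let-7f (chr17:16320508-16320529) and let-7d (chr17:16322273-16322294) lay in a row on the plus strand, 341 and 1743 bases apart, inside the span of the long non-coding RNA gene LOC120097935. On chromosome 7, let-7c (chr7:118683636-118683657) and let-7b (chr7:118684044-118684065) were 386 bases apart on the plus strand, outside any other annotated gene. On the X chromosome, let-7f (chrX:24460052-24460073) and miR-98 (chrX:24460663-24460684) were 589 bases apart within Huwe1, which encodes a ubiquitin ligase. The second let-7a gene lay in the long non-coding RNA gene Lnc215 on chromosome 8, the second let-7c gene in LOC103693508 on chromosome 11, let-7e in Spaca6 on chromosome 1, and let-7i on the minus strand of chromosome 7. Counts of a mature sequence cannot tell its 2 genes apart.

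Because of this likeness, the way reads were assigned bears on every level given here. All 96 member values (8 members in 12 libraries) were fractional, against 221 of 753 listed miRNAs with a fractional value in any library and 98 with one in all 12. A fraction can arise when a read is divided between more than 1 miRNA, and whether all fractions here arose so could not be checked. Only 6 of the 96 values lay within 0.005 of a simple fraction. The rule by which reads were divided is not given in the sources used here, so the level of a member 1 base away from let-7a depends on a step that could not be examined. Rounding to whole counts for the test changed no member's value by more than 0.369%.

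Library totals ranged from 2243413 to 4917928 counts in vehicle (median 3742260) and from 1960704 to 3598771 in ethanol (median 2751741), a difference of -0.38 in mean log2 total (exact permutation test, two-sided, p = 0.156). The tissue was checked on summed levels of marker miRNAs, in CPM (counts per 1000000 counts of the library) scaled by the trimmed mean of M-values (TMM). The 6 of 6 neuronal markers were detected in every library and summed to between 34821 and 39980 in vehicle and between 31654 and 39443 in ethanol. The 6 of 6 choroid plexus markers were detected in every library and summed to between 33253 and 58688 in vehicle and between 18433 and 82739 in ethanol. Of 5 muscle markers, 3 were detected in every library, and their sum had a median of 1655 CPM in vehicle and 200.4 in ethanol, with ranges of 128 to 1765 and 112 to 1712. The oligodendrocyte, vascular, blood cell and microglial lists also overlapped between groups. The part of these tissues in the members' levels was not tested. In 1 added edgeR fit with the mean choroid plexus level as a covariate, no member had an adjusted p under 0.05. Without the covariate the lowest adjusted edgeR p of a member was already 0.971. The unchanged call therefore cannot show what part choroid plexus had. Vehicle rats 19 and 20 and ethanol rats 23 and 24 stood apart in miR-99b and miR-100, described further on. Libraries were sequenced in sets of 8 and the labels do not give each library's set, so the set was not tested. In bulk tissue, fewer cells of a type and less RNA per cell cannot be told apart.

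The family made up 5.78% ± 0.826 (SD, n = 4) of all counts in vehicle and 5.56% ± 0.434 (SD, n = 8) in ethanol. The values were 5.18%, 6.99%, 5.33% and 5.64% for vehicle rats 9, 10, 19 and 20. Among ethanol rats the lowest was 5.10%, the median 5.44% and the highest 6.37%. The ranges overlapped, and vehicle rat 10 held the highest share. The log2 ratio of the group means was -0.06, or -0.02 after scaling, against a pooled standard deviation between rats of 0.14, so the summed family differed between groups by less than the spread between rats. With let-7g added the share ranged from 6.00% to 7.93% over the 12 libraries.

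The levels below are also CPM scaled by TMM, and all 8 mature sequences have the same length. Let-7a was the most abundant member at 38367 ± 4296 CPM (SD, n = 12), which placed it at rank 6 among all listed miRNAs. Let-7i followed at 8398 ± 779 CPM (rank 23) and let-7c at 4288 ± 509 CPM (rank 35). MiR-98, a let-7 family member by its seed despite its name, stood at 1995 ± 143 CPM (rank 61). Let-7e stood at 1435 ± 126 CPM (rank 72), let-7f at 988 ± 150 CPM (rank 81) and let-7b at 803 ± 102 CPM (rank 88). Let-7d was far below the others at 52.2 ± 6.86 CPM (rank 223), from 97 to 262 counts a library. The non-member let-7g, at 9308 ± 388 CPM (rank 20), would have stood between let-7a and let-7i.

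**Figure D1:**
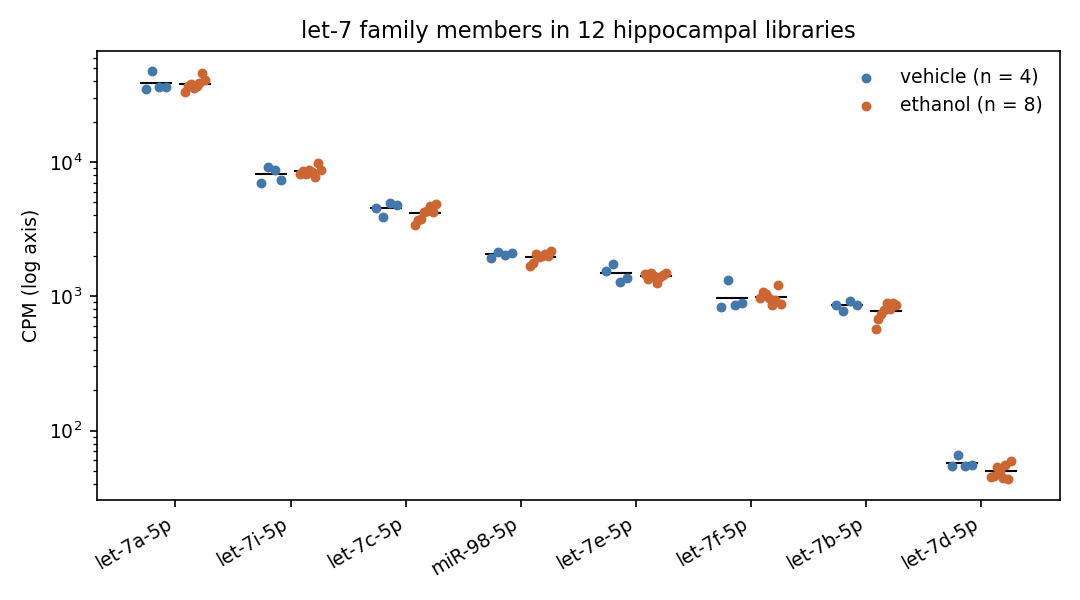
CPM on a log axis for each of the 8 members, ordered by mean level, with 1 point per library (blue for 4 vehicle, orange for 8 ethanol) and a black bar at each group's mean. Let-7a sits between 33501 and 47563 CPM and let-7d between 43.3 and 66.0 CPM, and for every member the vehicle and ethanol points overlap.

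The full order held in 9 of 12 rats. The mean fold from each member to the next was 4.56 from let-7a to let-7i, 1.96 from let-7i to let-7c, 2.14 from let-7c to miR-98, 1.39 from miR-98 to let-7e, 1.46 from let-7e to let-7f, 1.23 from let-7f to let-7b and 15.4 from let-7b to let-7d. In 12 of 12 libraries each of these pairs kept the same order, with 1 exception. Let-7f was above let-7b in 9 of 12 libraries, and the order was turned in vehicle rats 9 and 19 and ethanol rat 15. The log2 ratio of that pair was 0.30 ± 0.33 (SD, n = 12), a mean smaller than the spread between libraries. Let-7a and let-7f, which share the cluster on chromosome 17 and differ by 1 base, were far apart in level, as were let-7b and let-7c of the cluster on chromosome 7.

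The comparison of ethanol with vehicle asked whether a high dose of ethanol changed these miRNAs within 3 h. No member passed the test. With the quasi-likelihood test of edgeR, adjusted over all 420 miRNAs by the Benjamini-Hochberg method, 0 of 8 members had an adjusted p under 0.05 (0% of all 420), and the lowest adjusted p of a member was 0.971. By unadjusted p, 0 of 8 members were under 0.05 in edgeR, against 17 of 420 (4.05%), and 0 of 8 in the exact permutation test, against 11 of 420 (2.62%). For 0 of 8 members were the groups fully apart, against 1 of 420 miRNAs (0.238%). On the fitted values 6 members were lower and 2 higher after ethanol, against 54.0% of all 420 lower. The median log2 fold change was -0.07 over the 8 members and -0.02 over all 420. In a fit without rats 19, 20, 23 and 24, let-7a stood at -0.17, let-7e at -0.23 and let-7f at -0.14, 7 members were lower, and again no member had an adjusted p under 0.05.

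Let-7a, the member from which the differences above were counted, stood at 34767, 47563, 36308 and 36172 CPM in vehicle rats 9, 10, 19 and 20. In ethanol the lowest value was 33501, the median 37412 and the highest 45786 CPM. Vehicle rat 10 was the highest of the 12 and the groups overlapped over nearly their whole range. The edgeR log2 fold change was -0.02 (SE 0.10, 95% interval -0.23 to 0.19, raw p = 0.849 in edgeR), and the exact permutation p was 0.911.

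Let-7i, whose 3′ part is the most different from that of let-7a, was the member highest above zero in the fit. Vehicle rats 9, 10, 19 and 20 had 7026, 9223, 8713 and 7378 CPM. Ethanol rats had a lowest value of 7799, a median of 8535 and a highest of 9886 CPM. Only 1 ethanol rat was above every vehicle rat and the groups overlapped. The log2 fold change was 0.08 (SE 0.08, 95% interval -0.10 to 0.26) with a raw edgeR p of 0.345 and an exact permutation p of 0.309.

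Let-7c and let-7b, neighbours on chromosome 7, had similar fold changes. Let-7c stood at 4572, 3880, 4961 and 4753 CPM in vehicle rats 9, 10, 19 and 20, and in ethanol between 3390 and 4889 CPM with a median of 4231. Here vehicle rat 10 was the lowest vehicle rat, the opposite of let-7a, and 3 ethanol rats were below it. The let-7c log2 fold change was -0.13 (SE 0.10, 95% interval -0.34 to 0.09, raw edgeR p = 0.228, exact permutation p = 0.238). Let-7b stood at 866, 772, 923 and 865 CPM in the same vehicle rats, and in ethanol between 571 and 885 CPM with a median of 798. Again rat 10 was the lowest vehicle rat and 3 ethanol rats were below it. The let-7b log2 fold change was -0.14 (SE 0.11, 95% interval -0.38 to 0.10, raw edgeR p = 0.220, exact permutation p = 0.228).

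Let-7d, the third gene of the cluster on chromosome 17, had the lowest p of the 8 members. It had 54.5, 66.0, 54.2 and 55.7 CPM in vehicle rats 9, 10, 19 and 20. In ethanol the lowest value was 43.3, the median 48.0 and the highest 59.3 CPM. Of the 8 ethanol rats, 6 were below every vehicle rat, and ethanol rats 16 and 24 lay within the vehicle range. The log2 fold change was -0.21 (SE 0.11, 95% interval -0.44 to 0.02), with a raw edgeR p of 0.0652 and an exact permutation p of 0.0606, and the adjusted p in edgeR was 0.971. It was also the member with the fewest counts.

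The remaining members lay close to zero. Let-7e ranged from 1278 to 1736 CPM in vehicle and from 1265 to 1484 in ethanol, with a log2 fold change of -0.07 (SE 0.08, raw edgeR p = 0.430, exact permutation p = 0.483). Let-7f ranged from 833 to 1323 CPM in vehicle and from 865 to 1204 in ethanol, with a log2 fold change of 0.02 (SE 0.13, raw edgeR p = 0.877, exact permutation p = 0.782). MiR-98 ranged from 1926 to 2151 CPM in vehicle and from 1688 to 2163 in ethanol, with a log2 fold change of -0.07 (SE 0.07, raw edgeR p = 0.375, exact permutation p = 0.321). None of the 3 separated the groups. For let-7g the log2 fold change was -0.03 (SE 0.05, 95% interval -0.14 to 0.09), the narrowest interval of the 9 miRNAs with this seed.

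**Figure D2:**
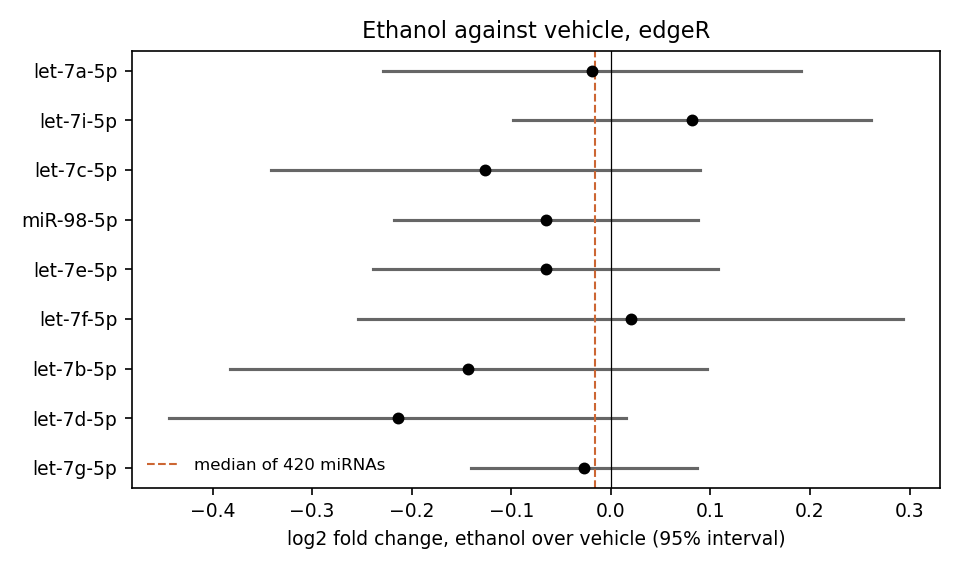
Log2 fold change of ethanol over vehicle from edgeR for the 8 members and let-7g, with points at the estimate and lines for the 95% interval. All intervals cross zero, and the dashed line marks the median of all 420 miRNAs at -0.02.

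The 95% intervals bound the size of change that these libraries leave possible. For let-7a they covered a level in ethanol of 0.853 to 1.14 times that in vehicle, for let-7i 0.934 to 1.20 times, and for miR-98 0.860 to 1.06 times. For let-7d they covered 0.735 to 1.01 times, and for let-7f 0.839 to 1.23 times.

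The make-up of the family was described by each member's share of the summed counts of the 8 members, which does not depend on the scaling of libraries. Let-7a took 68.0% ± 2.31 in vehicle (SD, n = 4) and 68.0% ± 1.11 in ethanol (SD, n = 8). Let-7i took 14.3% ± 1.04 and 15.3% ± 0.861, and let-7c 8.14% ± 1.55 and 7.42% ± 0.751. Let-7a thus supplied about the same part of the family in both groups. MiR-98 took 3.65% and 3.51%, let-7e 2.61% and 2.53%, let-7f 1.71% and 1.77%, let-7b 1.53% and 1.38%, and let-7d 0.102% and 0.0887%, in vehicle and ethanol.

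**Figure D3:**
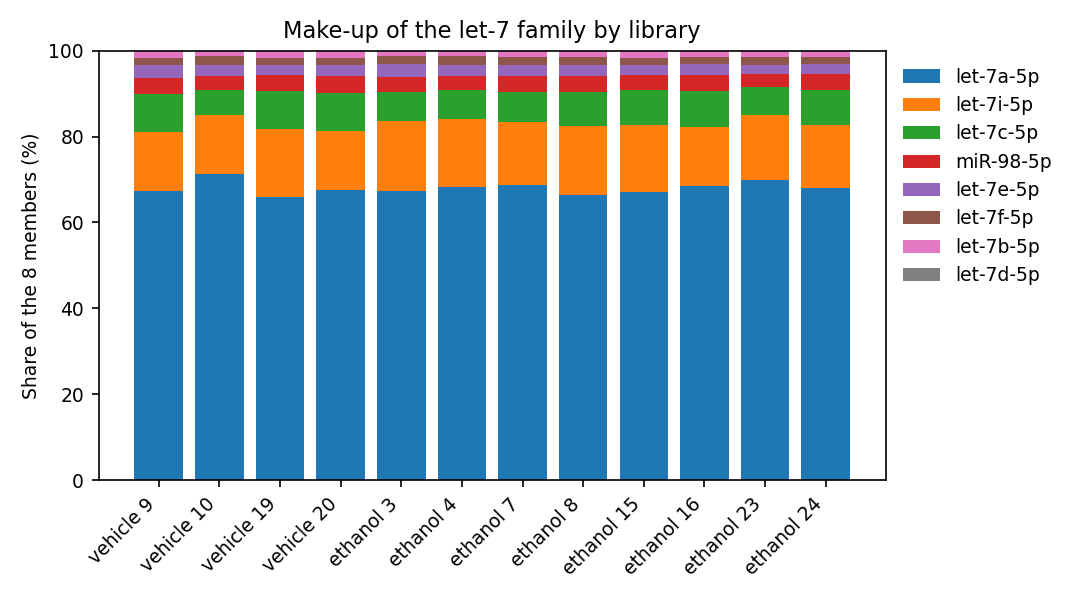
Stacked bars of each member's share of the summed counts of the 8 members, in percent, for each of the 12 libraries (4 vehicle, then 8 ethanol). Let-7a fills 65.9% to 71.3% of each bar, let-7i 13.6% to 16.4% and let-7c 5.82% to 9.00%, and let-7d is too small to see.

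The difference in mean share was tested for each member by a two-sided exact permutation test over all 495 assignments of the 12 libraries, for which the smallest p is 0.00202. Of 8 shares, 1 had a raw p under 0.05. That was let-7d, at 0.106%, 0.0989%, 0.0984% and 0.104% in vehicle rats 9, 10, 19 and 20, and between 0.0662% and 0.0993% in ethanol. The mean share of let-7d was 0.102% in vehicle and 0.0887% in ethanol (exact permutation p = 0.0424, not adjusted), and 7 of 8 ethanol rats were below every vehicle rat, with the nearest pair equal to 3 digits. When rats were left out singly, the exact permutation p for let-7d ran from 0.0242 to 0.115 and was under 0.05 in 4 of 12 cases. Without rats 19, 20, 23 and 24 it was 0.0714 (exact permutation test). Let-7i had the next lowest value, a share 1.02 percentage points higher after ethanol (exact permutation p = 0.0970). The p for the other 6 shares ran from 0.202 for let-7b to 0.998 for let-7a. Shares of a whole are not independent of each other.

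Vehicle rat 10 decided some of these shares. It had the lowest vehicle share of let-7c, 5.82% against 8.86% to 9.00% in the other vehicle rats. Without it, the let-7c share was 1.49 percentage points lower after ethanol (exact permutation p = 0.0242) and the let-7b share 0.276 points lower (exact permutation p = 0.0242). Without vehicle rat 19, or without ethanol rat 16, the let-7i share was 1.54 or 1.23 points higher (exact permutation p = 0.0182 and 0.0455). Each share was examined without each of the 12 rats in turn, only cases under 0.05 are given here, and no p was adjusted. With all rats the exact permutation p was 0.289 for let-7c, 0.202 for let-7b and 0.0970 for let-7i.

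The spread between rats was below the median of all 420 miRNAs for 6 of 8 members in vehicle, all but let-7a and let-7f, and for 8 of 8 in ethanol. The coefficient of variation of CPM ran from 4.94% for miR-98 to 23.6% for let-7f in vehicle, where the median of all 420 was 14.4%. In ethanol it ran from 5.29% for let-7e to 14.3% for let-7b, where the median of all 420 was 16.8%. The lowest values among the miRNAs with this seed belonged to let-7g, at 3.96% and 4.40%. The 420 include miRNAs with few counts, such as let-7c-1-3p at 3 to 19 a library, where counting error adds more to the spread. Members were not compared with miRNAs of like level, so the low spread cannot be read as particular to the family.

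The members did not rise and fall as 1 block from rat to rat. Over the 12 libraries, 11 of 28 pairs of members had a Pearson r above 0.5 in log2 CPM and 6 pairs had a negative r. The closest pair was let-7b with let-7c (r = 0.87, Spearman rho = 0.75), which are neighbours on chromosome 7 and differ by 1 base. By Pearson r, let-7a was closest to let-7f (r = 0.75, rho = 0.51) and let-7i (r = 0.68, rho = 0.59). By Spearman rho, let-7a was closest to miR-98 (rho = 0.66, r = 0.57). Let-7c and let-7f, which share no cluster, ran opposite to each other (r = -0.58, rho = -0.74). Their correlations with library total also had opposite signs (below). These are descriptions of 12 libraries that share their scaling, and for pairs 1 base apart they also share the step that divided reads.

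The let-7b and let-7c levels also moved with library total, whose difference between groups did not pass its test (above). For let-7c the Pearson r of log2 CPM with log2 total was 0.85 (permutation p = 0.00064) and Spearman rho was 0.85 (permutation p = 0.001), with r = 0.82 without the 2 libraries farthest from the median total and r = 0.81 over the 8 ethanol libraries alone. For let-7b, r was 0.78 (permutation p = 0.00191) and rho 0.89 (permutation p = 0.00026), with r = 0.80 without the 2 farthest and 0.83 in ethanol alone. For let-7e, r was -0.58 (permutation p = 0.0445) and rho -0.51 (permutation p = 0.0928), and r was -0.41 without the 2 farthest. For let-7f, r was -0.56 (permutation p = 0.0598) and rho -0.66 (permutation p = 0.0215), and r was -0.47 without the 2 farthest. With 4 libraries the vehicle group was too small for a value of its own. By raw permutation p of r, 3 of 8 members were under 0.05, against 44 of 420 miRNAs (10.5%). After Benjamini-Hochberg adjustment over all 420 no member was, nor any other miRNA (0%), and the adjusted permutation p was 0.182 for let-7c and 0.199 for let-7b. For let-7a r was -0.10 (permutation p = 0.749).

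With log2 library total as a covariate in edgeR, the log2 fold change of let-7c moved from -0.13 to 0.01 and that of let-7b from -0.14 to -0.02. In that fit let-7e stood at -0.15 with a raw edgeR p of 0.0484. The part of depth in these values was not tested further.

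**Figure D4:**
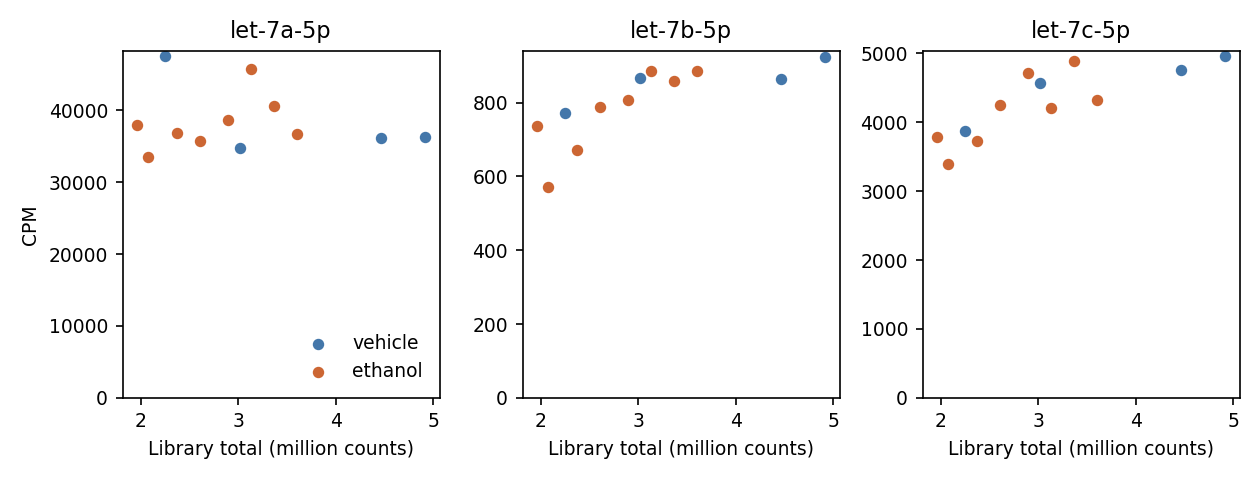
CPM of let-7a, let-7b and let-7c (y axes from 0) against the library total in units of 1000000 counts, with 1 point per library (blue vehicle, orange ethanol). Let-7b and let-7c are higher in the larger libraries (r = 0.78 and 0.85 on log2 scales), and let-7a shows no such relation (r = -0.10).

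The 3p arms gave a second readout of the same hairpins. Of 12 listed 3p arms of let-7 and miR-98 genes, 11 passed the filter on low counts, and let-7a-2-3p did not. Their mean levels ran from 0.698 to 299.5 CPM, with let-7d-3p the highest. Let-7a-1-3p and let-7c-2-3p have the same mature sequence and held equal counts in 12 of 12 libraries, so they are 1 measurement listed under 2 names, which leaves 10 distinct arms. After ethanol 9 of the 10 were lower, against 54.0% of all 420, and 1 (let-7g-3p) was higher on the fitted values. None passed the test in edgeR (0 by adjusted p and 0 by raw p under 0.05, against 0% and 4.05% of all 420), with log2 fold changes from -0.27 to 0.11 and a median of -0.07 over the 10. Let-7c-1-3p, with 3 to 19 counts a library, stood at a log2 fold change of -0.24 (SE 0.30).

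For most hairpins the 5p arm dominated by a wide margin. The ratio of 5p to 3p counts had a median of 2090 for let-7a and let-7c combined, 636.5 for let-7g and 588.5 for let-7i. In the combined ratio the equal counts of let-7a-1-3p and let-7c-2-3p were both added, so it would be higher with them counted once. It was 86.8 for miR-98 and 79.8 for let-7e. For let-7f it was 6.70 and for let-7b 4.11, both above 1 in 12 of 12 libraries. Let-7d was the exception, with more 3p than 5p counts in 12 of 12 libraries and a median 3p to 5p ratio of 6.07 (range 3.62 to 6.60). The 5p arm of let-7d was thus the minor product in these counts, and the ratio did not separate the groups (mean log2 5p to 3p ratio -2.47 ± 0.41 in 4 vehicle and -2.53 ± 0.14 in 8 ethanol rats).

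**Figure D5:**
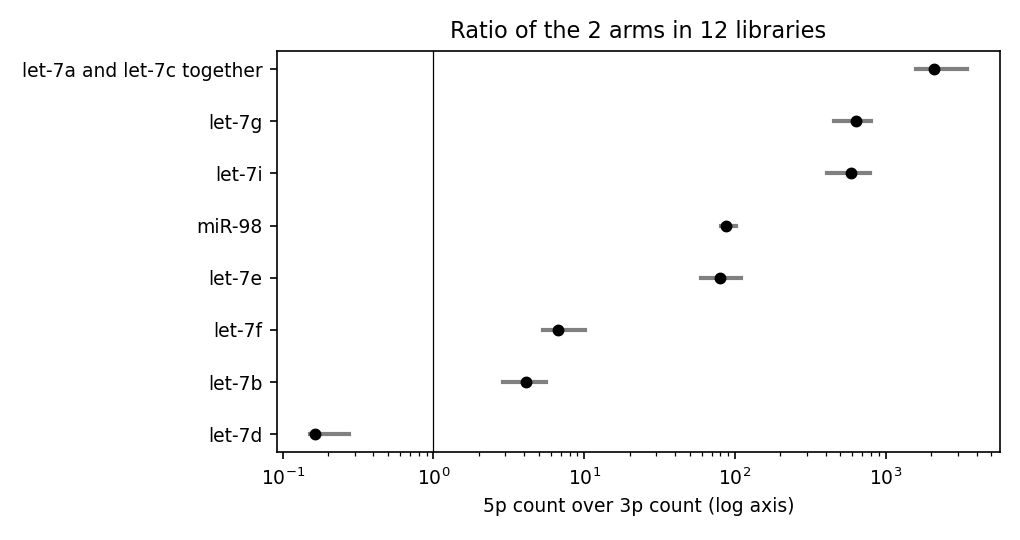
Ratio of 5p to 3p counts on a log axis for each hairpin, with a point at the median and a line from the lowest to the highest of the 12 libraries; the vertical line marks equal counts. Let-7d is the only hairpin left of that line, with a median of 0.165.

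MiRNAs transcribed next to let-7 genes were listed as well. MiR-99a, miR-99b, miR-100, miR-125a and miR-125b (5p arms), which share clusters or host transcripts with some let-7 genes, were 5 of 5 higher after ethanol on the fitted values, against 46.0% of all 420, with log2 fold changes from 0.04 for miR-125b to 0.31 for miR-100. Their levels set vehicle rats 19 and 20 and ethanol rats 23 and 24 apart from the other 8, at 15184 to 18882 CPM of miR-99b against 25049 to 34330, and at 3629 to 4667 CPM of miR-100 against 5647 to 7615. These were 2 of 4 vehicle and 2 of 8 ethanol rats. With the 4 rats left out, a fit added after the data were seen, 3 of the 5 were higher and 2 lower, and the value was 0.23 for miR-100 and 0.07 for miR-99b. In that fit 1 of 5 had a raw edgeR p under 0.05, against 20 of 420. It was miR-100, with a raw edgeR p of 0.0324 and an adjusted p of 0.810. With all 12 rats in edgeR, 0 of 5 passed by adjusted p (0% of all 420) and 0 of 5 by raw p (4.05% of all 420). There miR-100 had a raw p of 0.153.

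The 5 non-members whose log2 CPM was most like the log2 summed CPM of the 8 members, by Pearson r over 12 libraries, were miR-328a-3p (r = 0.93, rho = 0.78), miR-1839-5p (0.89, 0.70), miR-221-3p (0.85, 0.64), miR-125b-1-3p (0.84, 0.64) and miR-760-3p (0.83, 0.90). Without the 2 libraries farthest from the median of the family level, r stayed at 0.91 for miR-328a-3p, 0.76 for miR-221-3p and 0.82 for miR-760-3p, and was 0.48 for miR-1839-5p and 0.22 for miR-125b-1-3p, which rested on those libraries. Those libraries were vehicle rat 10 and ethanol rat 23, in which the family took the largest percent of counts (6.99% and 6.37%). The 5 were picked as the highest r among all non-members that passed the filter, and no p was computed. Let-7a held 68.0% of the members' counts on average, so likeness to the sum is largely likeness to let-7a.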

How the data were processed

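Small RNA libraries were made by the authors from 1 µg of total RNA per rat, with gel purification of RNA of 20 to 30 nt, and sequenced single-end. The authors deposited 1 list of estimated counts (expected counts, often fractional) per mature miRNA and rat, not scaled to library size. The submitters' processing notes name cutadapt, Partek and the rn5 build, and the versions, the counter and the annotation are not given in the sources used here. Members and lists were chosen with earlier results of these data known.

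From the estimated counts, rounded to whole numbers, miRNAs with fewer than 10 reads in 10 or more of 12 libraries were removed, leaving 420 of 753. Groups were taken from the labels (4 vehicle, 8 ethanol), each library coming from 1 rat, and the labels do not tell which libraries were sequenced in 1 set. They were compared with edgeR 4.0.16 in R 4.3.3, using TMM factors, the quasi-likelihood test without covariates and Benjamini-Hochberg adjustment over all 420. Beside it, an exact permutation test (two-sided, 495 assignments) was run on mean log2 CPM (prior count 2) and on shares. Correlations with library total were tested by 100000 permutations. A count of 3, used as a floor, was worth 0.610 to 1.53 CPM, so depth did not limit detection of the 8 members, and this floor covers counting error only. Mature sequences, positions and host genes were read from RefSeq (GRCr8), and no position from the files' own build was used. The named miRNAs were the members, listed 3p arms of let-7 and miR-98, other miRNAs with the same seed, 5 neighbours of let-7 genes and the 5 non-members most alike to the summed family. Alternatives were other scalings and filters, unrounded counts, robust edgeR, limma 3.58.1, DESeq2 1.42.0, library total or choroid plexus marker mean as a covariate, other sets of members leaving out each rat and, added after the data were seen, leaving out rats 19, 20, 23 and 24. Scripts were tested on simulated data.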

Additional observations from a re-analysis of the deposited data

Results flagged for a closer look

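Among 58 groups of values from 4 vehicle or 8 ethanol rats that were examined (levels and shares of the members, let-7g and the 3p arms, by group), 8 had 1 rat far from the rest. Chance gives about 1 in 20, or 2.9. The 58 groups were not independent, because levels and shares came from the same rats and shares of a whole depend on each other. The count of 8 against 2.9 therefore cannot decide whether the flags exceed chance. The measure is the gap from the end rat to its nearest neighbour as a part of the group's whole range.

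Vehicle rat 10 accounted for 6 of the 8. It was the highest vehicle rat in log2 CPM of let-7a (15.54, with the next at 15.15; ratio 0.862), let-7d (6.04, next 5.80; ratio 0.861) and let-7f (10.37, next 9.81; ratio 0.841), the 3 members of the cluster on chromosome 17. Members outside that cluster were also highest in this vehicle rat without being flagged: let-7e (1736 CPM), let-7i (9223 CPM) and miR-98 (2151 CPM). Its miR-98 share (3.22%) was likewise the lowest in vehicle and not flagged. Rat 10 was flagged as the lowest in the share of let-7b within the family (1.16%, next 1.61%; ratio 0.875) and of let-7c (5.82%, next 8.86%; ratio 0.957), the 2 members of the cluster on chromosome 7, and in log2 CPM of let-7d-3p (7.90, next 8.41; ratio 0.865). The 5p and 3p arms of let-7d thus stood at opposite ends in the same rat. Its library total, 2243413 counts, was the lowest of the 4 vehicle libraries. The part of depth in this was not tested.

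Vehicle rat 19 had the highest vehicle share of let-7i (15.8%, next 13.8%; ratio 0.906), and ethanol rat 4 the lowest ethanol log2 CPM of let-7g (13.03, next 13.15; ratio 0.573).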

How the results depend on the processing

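No member had an adjusted p under 0.05 under any of the alternatives run. Of 216 alternative values of the members' log2 fold changes, 16 had the opposite sign to the reported one, and none of these 216 passed the adjusted threshold. Apart from fits that left out rats, most signs that turned ended close to zero, and the cause was not tested. The farthest was let-7f-5p with library total as a covariate, at -0.087. Let-7f-5p stood at -0.024 with library totals alone, -0.0047 with upper quartile scaling and -0.087 with library total as a covariate. Let-7a-5p stood at 0.010 when 10 reads were required in 10 libraries and 0.0014 with edgeR's own filter. Let-7g-5p and let-7i-3p stood at 0.0027 and 0.0018 when 10 reads were required in 10 libraries. With library total as a covariate let-7c-5p stood at 0.0072 and let-7b-3p at 0.025. Let-7f-2-3p stood at 0.0019 with RLE factors, 0.0044 with TMM without the family, 0.024 when 10 reads were required in 10 libraries, 0.0030 without a filter, 0.015 with edgeR's own filter and 0.018 with library total as a covariate.

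The count of members with a raw p under 0.05 was 1 with library totals alone (let-7d) and 1 with library total as a covariate (let-7e). Over all 420 miRNAs, DESeq2 called 1 by adjusted p, and 11 had a raw p under 0.05 with library total as a covariate. With the choroid plexus covariate, chosen after seeing the data, no member was called, and none was called without it either. Without rats 19, 20, 23 and 24, also left out after seeing the data, 1 member had a raw p under 0.05 (let-7e), 7 were lower, and the values that turned were -0.14 for let-7f-5p, 0.11 for let-7b-3p, 0.052 for let-7f-2-3p, 0.19 for let-7i-3p and, for shares in percentage points, -1.65 for let-7a, 0.119 for let-7c and 0.0837 for miR-98.

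With each rat left out in turn, 5 to 21 miRNAs had a raw p under 0.05 (5 without vehicle rat 20) and 0 to 3 an adjusted p under 0.05 (3 without ethanol rat 16). The members with a raw p under 0.05 numbered 0 to 1 (let-7d without ethanol rat 24), and those lower after ethanol 4 to 7 (4 without vehicle rat 10). The log2 ratio of the family's share ran from -0.11 to 0.05. Log2 fold changes that turned ran from -0.081 to 0.077 for let-7a-5p, -0.13 to 0.0024 for let-7e-5p, -0.064 to 0.18 for let-7f-5p, -0.22 to 0.018 for let-7b-3p, -0.16 to 0.036 for let-7e-3p, -0.072 to 0.034 for let-7f-2-3p and -0.18 to 0.050 for let-7i-3p. Differences in share, in percentage points, ran from -0.707 to 1.10 for let-7a, -0.177 to 0.0449 for let-7e, -0.276 to -0.102 for let-7b, -1.49 to -0.427 for let-7c, -0.0145 to -0.00977 for let-7d and 0.813 to 1.54 for let-7i. Each rat belonged to 1 group, and cage and litter were not among the sample details used here, so no paired analysis was run. With 4 vehicle rats 1 rat can turn a value near zero, and members 1 base apart depend on how reads were divided.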
